A study of Mus musculus with 6 samples.

Results

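The CD28 family and other checkpoint receptors were followed through 9 genes, Ctla4, Cd28, Icos, Btla, Lag3, Cd160, Cd5, Cd96 and Cd226, measured in mouse regulatory T cells (Tregs) on 6 arrays. The members were taken by name, as every probe set that the platform annotates to one of these genes alone, which gave 15 of the 45101 probe sets and 9 of the 18193 genes on the array. Treg arrays fell into 3 groups of 2. WT ATL1222 cells, of genotype A2AR+/+FoxP3GFP, were incubated for 18 h with 10 nM of ATL1222, an agonist of A2AR, a receptor for adenosine. A2AR KO vehicle cells, of genotype A2AR-/-FoxP3GFP, and WT vehicle cells, of genotype A2AR+/+FoxP3GFP, received DMSO for the same time. All groups were of the C57Bl/6 background, carried the FoxP3GFP reporter, came from mice aged 8 to 11 weeks, and were sorted as CD4+CD25+FoxP3+ cells from spleen and lymph nodes. The labels call the replicates biological but name no separate animals, and they do not say in which tissues the receptor was deleted or whether mice were pooled. Spread between 2 arrays, which may be technical, is therefore all that a p-value measures. Receptor-deficient cells with ATL1222 were not analysed here, so a difference between WT ATL1222 and A2AR KO vehicle holds the genotype and the agonist together.

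CD28, CTLA-4 and ICOS are related receptors of T cells. CD28 and CTLA-4 bind the same ligands, CD80 and CD86, on antigen-presenting cells: CD28 gives a co-stimulatory signal, and CTLA-4, which Tregs carry in abundance, binds the ligands more strongly, blocks that signal and strips the ligands from the other cell. ICOS binds its own ligand and supports effector Tregs. BTLA is an inhibitory receptor that shares the ligand HVEM with CD160, LAG-3 is a relative of CD4 that binds MHC class II, and CD5 dampens T cell receptor signals. CD96 and CD226 compete for the ligand CD155, CD226 as an activating receptor. A2AR raises cAMP, a pathway known to restrain T cell activation and to act on gene expression through CREB.

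Values are linear array intensities, called signals here, and the authors had brought the trimmed mean of each array to a common level. Array medians ran from 74.7 to 98.2, and 3' over 5' ratios of Gapdh from 1.21 to 1.45. Each gene was represented by its brightest probe set, and differences were fitted with limma on log2(signal + 16) over the 10916 genes above the limit for dim genes, a mean log2 value of 6.45 or a signal of about 71.2. A gene was called where its p, adjusted over all these genes by the Benjamini-Hochberg method, was under 0.05. Of the 9 members 7 were above the limit and were tested, and Lag3 and Cd226 were below it. An exact test of 2 arrays against 2 cannot go below p = 0.333, so no member was tested alone. Among Treg markers, Ikzf2 (Helios) had signals of 6810 to 8431, the T cell gene Cd3g of 6360 to 8882, and Il2ra, the CD25 gene of the sort, of 416.0 to 613.1. Cd4, also a gene of the sort, was less even, with 487.8 and 339.0 in WT ATL1222, 305.2 and 435.0 in A2AR KO vehicle and 343.2 and 135.6 in WT vehicle. The 1 probe set of Foxp3, a further gene of the sort, lay between 7.18 and 53.5, below the limit on all arrays.

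**Figure D1:**
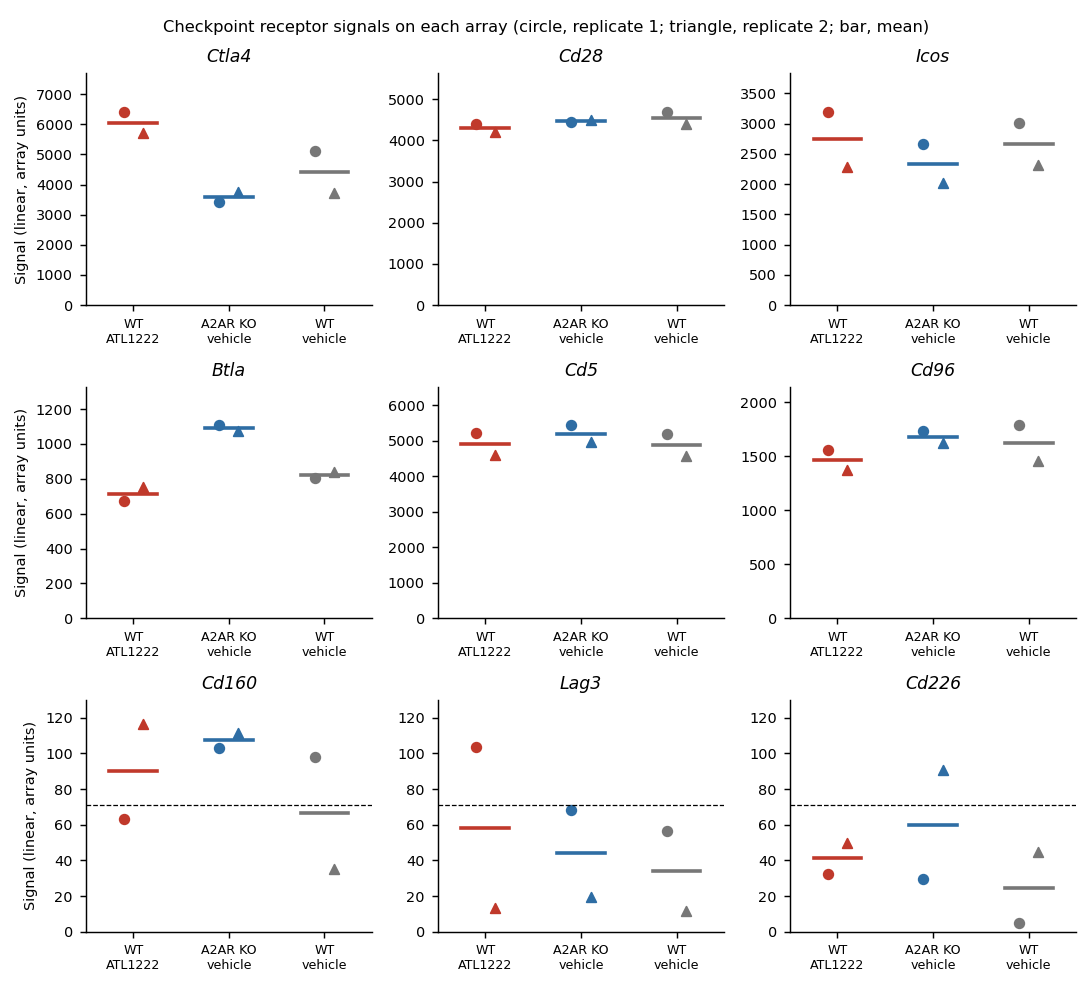
Signal of each of the 9 receptors by its brightest probe set, on a linear scale in array units starting at 0, for WT ATL1222, A2AR KO vehicle and WT vehicle arrays. Circles are replicate 1, triangles replicate 2 and bars the mean of 2 arrays, and the dashed line marks the limit for dim genes at 71.2. Ctla4 arrays with ATL1222 lie above all others and Btla arrays of the knockout above all others.

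In the fit described above Ctla4 was the only member called, and only between WT ATL1222 and A2AR KO vehicle. Ctla4 has 1 probe set on the array, so there was no other to set beside it. Its signal was 6410 and 5699 in WT ATL1222 cells, 3432 and 3759 in A2AR KO vehicle cells, and 5125 and 3703 in WT vehicle cells. The arrays with ATL1222 were higher than the other 4, the knockout arrays lay close together, and those of WT vehicle spread over a range that reached the knockout. With ATL1222 Ctla4 was 1.68-fold higher than in the knockout (95% interval 1.33 to 2.12), a log2 difference of 0.75 ± 0.16 (SE, n = 2 arrays a group), and this passed the test over all genes (limma adjusted p = 0.0370). It was the only one of the 7 tested members called in that comparison, where 0.999% of all genes tested were called. Within replicate 1 the log2 difference was 0.90 and within replicate 2 it was 0.60. The call did not hold under 8 of 17 other ways of processing the same arrays, among them leaving out any 1 of the 4 arrays compared, which gave log2 differences of 0.66 to 0.83 and left 1 group with a single array, taken to vary like the others. The direction held under all 17, but leaving out an array could not turn it, as both ATL1222 arrays lay above both knockout arrays.

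Against WT vehicle Ctla4 did not pass in either direction. With ATL1222 the log2 difference was 0.47 ± 0.16 (limma adjusted p = 0.673), with a 95% interval of 1.10-fold to 1.75-fold, and the groups did not overlap. In the knockout it was -0.28 ± 0.16 (limma adjusted p = 1.00), with an interval of 0.65-fold to 1.04-fold. There the 2 replicates differed, at -0.58 within replicate 1 and 0.022 within replicate 2. Means were 6055 ± 503 in WT ATL1222, 3596 ± 231 in A2AR KO vehicle and 4414 ± 1005 in WT vehicle (SD, n = 2 arrays each), so WT vehicle stood between the others and did not differ from either beyond the test's threshold.

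The promoter of Ctla4 is shown because Ctla4 is the member that was called and because cAMP acts through a known DNA element, the CRE. It covers 250 bases before and 50 after the start site of transcription, from RefSeq on GRCm38.p6, plus strand, chr1:60908775-60909074, and capitals mark the motifs found.
Ctla4 promoter: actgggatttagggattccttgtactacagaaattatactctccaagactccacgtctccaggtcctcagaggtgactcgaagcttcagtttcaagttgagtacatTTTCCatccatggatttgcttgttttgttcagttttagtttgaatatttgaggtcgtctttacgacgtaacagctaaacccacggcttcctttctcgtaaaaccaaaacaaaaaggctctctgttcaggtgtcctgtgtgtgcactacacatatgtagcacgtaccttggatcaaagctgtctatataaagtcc
A search of both strands for the CRE (TGACGTCA), its core (TGACG), the AP-1 site (TGANTCA), a forkhead core (TGTTTAC) and the NFAT core (GGAAA) found only the NFAT core, on the opposite strand, 144 bases before the start. The NFAT core stood in 61.34% of all 32851 promoters of this length, the CRE in 1.79%, its core in 20.81% (every CRE holds it), the AP-1 site in 7.808% and the forkhead core in 3.65%. These matches describe letters within the window and bear on no factor.

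Btla had differences of the opposite sign to those of Ctla4, none of them called in the fit described above. Btla too was measured by 1 probe set only. Its signal was 670.2 and 750.5 in WT ATL1222 cells, 1108 and 1073 in A2AR KO vehicle cells, and 806.1 and 837.7 in WT vehicle cells. The 3 groups did not overlap, with the knockout highest and the agonist lowest. With ATL1222 it had 0.66 times the level of the knockout (95% interval 0.52 to 0.83), a log2 difference of -0.61 ± 0.16, which did not pass (limma adjusted p = 0.125). When replicate numbers were fitted as a block it did pass (log2 -0.61 ± 0.13, limma adjusted p = 0.0248), in a fit that called 2.42% of all genes. In the same fit Ctla4 had a limma adjusted p = 0.00400. Btla lay at log2 -0.71 within replicate 1 and at -0.51 within replicate 2.

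Set against WT vehicle, the 2 parts of that difference were each smaller. In the knockout Btla had a log2 difference of 0.40 ± 0.16 (limma adjusted p = 1.00; unadjusted p = 0.0249), at 0.45 and 0.35 within replicates 1 and 2. With ATL1222 it had -0.21 ± 0.16 (limma adjusted p = 0.998), at -0.26 and -0.16. These comparisons and the one above share arrays, so they are not separate evidence. Means were 710.3 ± 56.8 in WT ATL1222, 1090 ± 24.7 in A2AR KO vehicle and 821.9 ± 22.4 in WT vehicle (SD, n = 2 arrays each), so WT vehicle again stood between the others, and neither difference from it passed the test.

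BTLA is also carried by B cells and by naive T cells, so markers of both are given here. The summed signal of 8 naive CD4 T cell markers was 25660 to 29936 in WT ATL1222 cells, 31622 to 31660 in A2AR KO vehicle cells and 26059 to 27434 in WT vehicle cells. All 8 were above the limit, and none was at 0. With ATL1222 against the knockout 7 of the 8 had a negative log2 difference (median -0.37), with 1 called lower (Id3) and 1 called higher (Ccr7), and in the knockout against WT vehicle 7 of the 8 had a positive one (median 0.18), with 0 called. Btla had the same signs in these 2 comparisons. With ATL1222 against WT vehicle, where Btla had a log2 difference of -0.21, 4 of the 8 were positive and 4 negative (median -0.058), with 0 called. The summed signal of 6 B cell markers was 4855 to 4966 with ATL1222, 7525 to 7646 in the knockout and 7029 to 8099 in WT vehicle, with 4 of the 6 above the limit. The lower sum with ATL1222 was that of 1 gene, since the other 3 tested markers had positive log2 differences from the knockout (Cd79b 0.15, Ms4a1 0.30 and Cd22 0.46), none of them called, and the median of the 4 was 0.23. Ighm, the immunoglobulin mu heavy chain gene, made up most of it, at 4198 to 4277 with ATL1222, 6855 to 7149 in the knockout and 6395 to 7539 in WT vehicle, and it was called lower with ATL1222 against both (limma adjusted p = 0.0139 and 0.0445). The defining B cell gene Cd79a was at 23.1 to 77.7 over all arrays and Ms4a1, the CD20 gene, at 150.0 to 242.5. What part these lists have in the Btla values was not tested. In such bulk samples fewer cells with a transcript and less of it per cell cannot be told apart.

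The Btla promoter is printed beside that of Ctla4 for comparison, as Btla was the other member with an unadjusted p under 0.05 between ATL1222 and the knockout. It lies on the plus strand at chr16:45224087-45224386 (RefSeq, GRCm38.p6, 250 bases before to 50 after the start).
Btla promoter: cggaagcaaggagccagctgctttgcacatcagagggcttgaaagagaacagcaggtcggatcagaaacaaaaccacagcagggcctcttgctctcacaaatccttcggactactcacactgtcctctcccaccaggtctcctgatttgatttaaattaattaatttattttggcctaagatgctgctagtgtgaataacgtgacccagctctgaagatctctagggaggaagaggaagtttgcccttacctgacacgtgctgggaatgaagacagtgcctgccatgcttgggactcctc
None of the 5 motifs above was found in it on either strand, so it has no capitals. Promoter entries matched 5 of the 9 members, and of these only Cd160 held a CRE core, in 1 of its 2 promoters.

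Cd28 stayed within a narrow range. By its brightest probe set it had 4395 and 4207 in WT ATL1222 cells, 4448 and 4499 in A2AR KO vehicle cells, and 4692 and 4394 in WT vehicle cells. Levels of all 3 groups lay within the reach of each other, although the 2 arrays with ATL1222 were both slightly lower than the 2 of the knockout. The 95% intervals bound its difference to between 0.80-fold and 1.16-fold for ATL1222 over the knockout, 0.79-fold and 1.14-fold for ATL1222 over WT vehicle, and 0.82-fold and 1.19-fold for the knockout over WT vehicle (limma adjusted p = 0.966, 0.998 and 1.00). A further probe set of Cd28 had 2819 to 3502 over the 6 arrays, with log2 differences of -0.12, -0.038 and 0.082 in that order, none of which passed.

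Because CD28 and CTLA-4 share their ligands, the level of Ctla4 was also set against that of Cd28 on each array, as a difference of log2 values whose zero has no meaning of its own, since probe sets differ in brightness. It was 0.54 and 0.44 in WT ATL1222 cells, -0.37 and -0.26 in A2AR KO vehicle cells, and 0.13 and -0.25 in WT vehicle cells. The arrays with ATL1222 were the highest, and the lower WT vehicle array lay next to the knockout arrays. This measure was formed after the values were seen and is given as a description.

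Icos was measured by 3 probe sets. By the brightest it had 3192 and 2280 in WT ATL1222 cells, 2663 and 2010 in A2AR KO vehicle cells, and 3003 and 2317 in WT vehicle cells. The spread within each group was wider than any difference between groups. Its log2 difference with ATL1222 over the knockout was 0.22 ± 0.19 (limma adjusted p = 0.862), with ATL1222 over WT vehicle 0.032 ± 0.19 (limma adjusted p = 0.998), and in the knockout over WT vehicle -0.19 ± 0.19 (limma adjusted p = 1.00).

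The other Icos probe sets gave larger differences between WT ATL1222 and the knockout. The middle one by brightness had 3068 and 2276 with ATL1222, 1891 and 1935 in the knockout, and 2660 and 1907 in WT vehicle. The dimmest had 705.3 and 695.3 with ATL1222, 555.2 and 358.5 in the knockout, and 737.7 and 431.9 in WT vehicle. On both, the 2 arrays with ATL1222 lay above the 2 of the knockout, and WT vehicle overlapped with each. In a fit of every probe set separately their log2 differences for ATL1222 over the knockout were 0.46 ± 0.19 and 0.63 ± 0.27 (limma adjusted p = 0.641 and 0.690; unadjusted p = 0.0297 and 0.0371), so all 3 probe sets had the same sign and none passed. In that fit 10 of the 15 probe sets of members were above the limit, 4 had an unadjusted p under 0.05 in this comparison, where 6.76% of all probe sets had one, and 0 were called, beside 0.382% of all. The 4 were those of Ctla4 and Btla and these 2 of Icos.

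**Figure D2:**
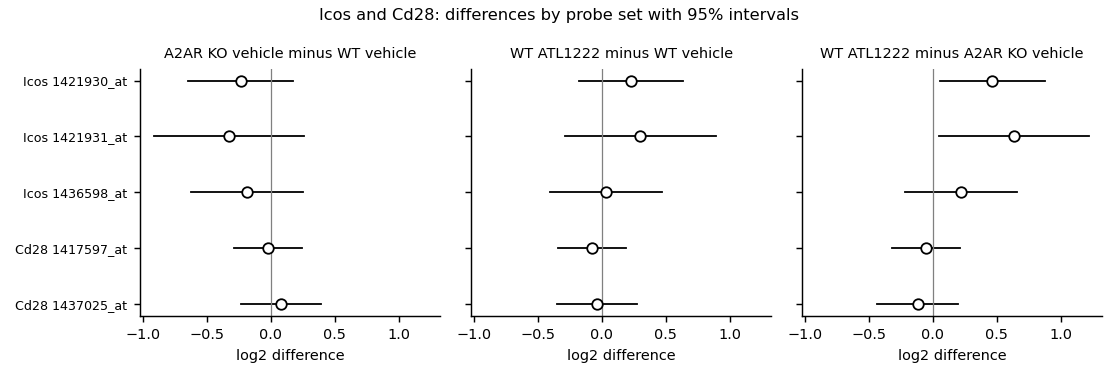
Log2 differences (x axis) of the 3 Icos and 2 Cd28 probe sets in each comparison, fitted over all probe sets, with 95% intervals as lines. The Icos values for WT ATL1222 minus A2AR KO vehicle are 0.46, 0.63 and 0.22 from top to bottom, and the Cd28 values stay between -0.12 and 0.082 in all panels.

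Cd5 had 5217 and 4616 in WT ATL1222 cells, 5444 and 4966 in A2AR KO vehicle cells, and 5209 and 4580 in WT vehicle cells. All 3 groups overlapped. The 95% intervals ran from 0.77-fold to 1.15-fold for ATL1222 over the knockout, from 0.82-fold to 1.23-fold for ATL1222 over WT vehicle and from 0.87-fold to 1.30-fold for the knockout over WT vehicle (limma adjusted p = 0.945, 0.998 and 1.00). Cd96 had 1562 and 1375 with ATL1222, 1730 and 1621 in the knockout and 1788 and 1456 in WT vehicle. The arrays with ATL1222 lay below those of the knockout, by a log2 difference of -0.19 ± 0.15 that did not pass (limma adjusted p = 0.843), and WT vehicle overlapped with each.

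The replicate number went with the level of 3 members. Icos by its brightest probe set, Cd5 and Cd96 were higher on replicate 1 than on replicate 2 in every group, as were 24.0% of all genes tested. The other way, higher on replicate 2 in every group, went 15.2% of all genes tested and 0 of the 7 members. For Cd5 the gap between replicates was larger than that between the means of any 2 groups. Fitting the number as a block narrowed the standard error of Icos to 0.099, of Cd5 to 0.091 and of Cd96 to 0.11, and none of these 3 members passed in any comparison in that fit. Besides the calls of Ctla4 and Btla given above, 0 of 7 members were called with the block in the comparisons against WT vehicle, where 0.0824% of all genes were called in the knockout and 0.724% with ATL1222. Among Icos, Cd5 and Cd96 the smallest p with the block was that of Icos for ATL1222 over the knockout (limma adjusted p = 0.373; unadjusted p = 0.0445).

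Cd160, Lag3 and Cd226 were dim. Cd160, a receptor best known from NK and CD8 T cells, passed the limit by its mean over all arrays only. It had 63.4 and 116.7 in WT ATL1222 cells, 103.0 and 111.7 in A2AR KO vehicle cells, and 97.7 and 35.2 in WT vehicle cells. Its log2 differences had standard errors of 0.50 and did not pass (limma adjusted p from 0.959 to 1.00). The other 3 probe sets of Cd160 lay between 6.27 and 74.0 and differed in sign: for the knockout over WT vehicle the log2 differences of the 4 were 0.69, -0.28, -1.32 and 0.85. No direction for Cd160 can be read from them.

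Lag3 had 103.5 and 13.0 in WT ATL1222 cells, 68.0 and 19.7 in A2AR KO vehicle cells, and 56.5 and 11.7 in WT vehicle cells. Replicate 1 was the higher in each group, and the groups overlapped throughout. Cd226 had 32.3 and 49.98 with ATL1222, 29.4 and 90.8 in the knockout, and 4.71 and 44.6 in WT vehicle, with replicate 2 the higher in each group. Neither was tested, and at this brightness the arrays could not show whether the groups differ. Of 11 CD8 T and NK cell markers, cells in which CD160, CD96 and CD226 are common, 4 were above the limit, and none was at 0. The summed signal of the 11 was 826.0 to 925.8 with ATL1222, 1008 to 1099 in the knockout and 757.9 to 904.3 in WT vehicle. The defining NK cell gene Ncr1 lay between 2.82 and 61.7, whereas Cd8b1 was above the limit, at 118.4 to 249.1. For the knockout over WT vehicle the 4 above the limit had log2 differences of 0.77 (Cd8b1), 0.21 (Prf1), -0.029 (Eomes) and -0.50 (Nkg7), none of them called.

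**Figure D3:**
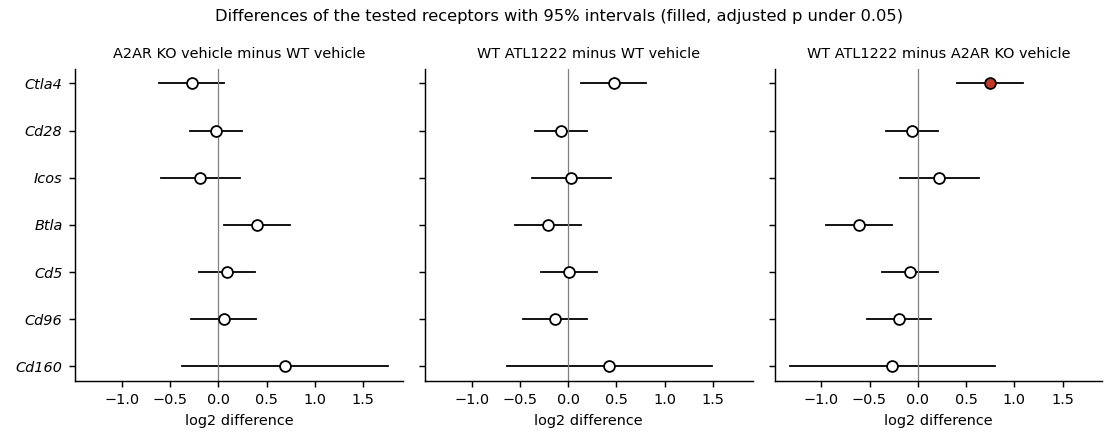
Log2 differences of the 7 tested receptors (x axis) in each comparison, with 95% intervals as lines and filled points where the adjusted p was under 0.05. Only Ctla4 for WT ATL1222 minus A2AR KO vehicle is filled, at 0.75, and the wide intervals at the bottom are those of Cd160.

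Counted over the members, 0 of 7 were called in the knockout against WT vehicle, where 0.0275% of all genes tested were called, and 0 of 7 with ATL1222 against WT vehicle, where 0.211% were. At an unadjusted p under 0.05 there was 1 member in the knockout comparison (Btla, higher) against 3.89% of all genes, 1 with ATL1222 against WT vehicle (Ctla4, higher) against 5.03%, and 2 with ATL1222 against the knockout (Ctla4, higher, and Btla, lower) against 8.48%. The groups did not overlap for 2, 2 and 4 of the 7 members in these comparisons, and for 29.6%, 30.8% and 38.2% of all genes. The median log2 difference of the 7 was 0.053 in the knockout, 0.0067 with ATL1222 against WT vehicle and -0.083 with ATL1222 against the knockout, beside 0.0048, -0.0079 and -0.022 over all genes.

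Ctla4, Cd28 and Icos are neighbours on chromosome 1 in the mouse gene table used for names (GRCm38.p6), with Ctla4 between the others and no other protein-coding gene among them. Between ATL1222 and the knockout Ctla4 was called, with an interval of 1.33-fold to 2.12-fold. The interval there ran from 0.80-fold to 1.16-fold for Cd28 and from 0.88-fold to 1.55-fold for the brightest probe set of Icos, and neither was called. Whether these genes differ from each other in this was not tested. Btla and Cd96 lie on chromosome 16, and Btla is next to Cd200. Cd200, which encodes the ligand of an inhibitory receptor, had 764.6 and 671.9 with ATL1222, 817.6 and 1006 in the knockout and 864.4 and 870.6 in WT vehicle. Cd5 is next to its relative Cd6, which had 2986 and 2751 with ATL1222, 3784 and 2637 in the knockout and 3368 and 2425 in WT vehicle.

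Genes whose pattern over the 6 arrays was most like that of Ctla4, by Pearson r of log2 values among 10909 genes that are no members, were Sipa1l1, Ell2 and Pon2 (r = 0.989, 0.989 and 0.988). Pon2, for example, had 1420 and 1396 in WT ATL1222 cells, 818.8 and 945.3 in A2AR KO vehicle cells, and 1179 and 879.0 in WT vehicle cells, with the same high first array of WT vehicle. Those most like Btla were Sepsecs, Iqgap2 and Frmd6 (r = 0.997, 0.992 and 0.990). With 6 points such values are common: 234 genes had r over 0.9 with Ctla4 and 152 with Btla.

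Related genes were taken from 5 lists with 70 names, of which 58 were tested. The lists were chosen with earlier results of these data known, so a share above that of all genes is no evidence about them. In the knockout against WT vehicle 0 rose and 1 fell, with ATL1222 against WT vehicle 2 rose and 0 fell, and with ATL1222 against the knockout 6 rose and 0 fell, beside 0.0275%, 0.211% and 0.999% of all genes called in either direction. Their median log2 difference was -0.039, 0.11 and 0.14 in these comparisons, beside 0.0048, -0.0079 and -0.022 over all genes. The called genes were 5 of 13 other checkpoint receptors and 1 of 6 ligands, and 0 of 16 signalling genes below CD28 and ICOS, 0 of 12 inhibitory phosphatases and ligases and 0 of 11 genes of CTLA-4 and LAG-3 trafficking and shedding.

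Among ligands, Cd86 was called. It had 445.9 and 575.8 in WT ATL1222 cells, 261.5 and 140.9 in A2AR KO vehicle cells, and 426.2 and 282.2 in WT vehicle cells, and with ATL1222 it was 2.51-fold higher than in the knockout (log2 1.33 ± 0.29, limma adjusted p = 0.0456). That call was lost under 10 of 17 alternatives. The direction did not change, but leaving out an array could not turn it, as both ATL1222 arrays lay above both knockout arrays. Cd80, the other ligand of CTLA-4 and CD28, overlapped between groups, at 196.2 and 269.3 with ATL1222, 270.5 and 232.4 in the knockout and 233.3 and 215.1 in WT vehicle. CD86 is chiefly a protein of antigen-presenting cells. The 8 myeloid and dendritic cell markers summed to 5765 to 6267 with ATL1222, 5472 to 5804 in the knockout and 5903 to 6892 in WT vehicle, with 3 above the limit and none at 0. Most of each sum was 1 gene, Ctss, which lay between 4936 and 6457 over all arrays, so the sum says little about the other markers. Of those, the myeloid gene Csf1r lay between 63.3 and 121.9 and Cd74 between 128.8 and 222.5. The part of these markers in the Cd86 values was not tested.

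Among the other receptors, Pdcd1, the PD-1 gene, had 7641 and 7092 in WT ATL1222 cells, 1066 and 901.8 in A2AR KO vehicle cells, and 3777 and 2301 in WT vehicle cells, and was called in all 3 comparisons, with ATL1222 7.40-fold over the knockout (log2 2.89 ± 0.19, limma adjusted p = 2.39e-06). That call held under all 17 alternatives, whereas the call in the knockout against WT vehicle was lost under 3 and that with ATL1222 against WT vehicle under 4, among them without WT ATL1222 replicate 1 or WT vehicle replicate 2. With ATL1222 over the knockout the co-stimulatory TNF receptors Tnfrsf9 (4-1BB), Tnfrsf18 (GITR) and Tnfrsf4 (OX40) were 3.41-fold, 2.16-fold and 1.97-fold higher (limma adjusted p = 9.04e-04, 0.00326 and 0.0190). These calls were lost under 1, 2 and 5 of 17 alternatives, for Tnfrsf18 without WT ATL1222 replicate 1 and for Tnfrsf4 without that array or A2AR KO vehicle replicate 2. Cd2, an adhesion and co-stimulatory receptor, had 7415 and 6038 with ATL1222, 4224 and 4064 in the knockout, and 5616 and 4818 in WT vehicle, a rise of 1.61-fold over the knockout (limma adjusted p = 0.0322) that was lost under 7 of 17 alternatives. Against WT vehicle, Tnfrsf9 rose with ATL1222 (limma adjusted p = 0.0282), a call lost under 7 of 17 alternatives, among them without WT ATL1222 replicate 2 or WT vehicle replicate 2. Tnfrsf18 and Tnfrsf4 had log2 differences of 0.65 and 0.67 and passed only with the replicate block (limma adjusted p = 0.00359 and 0.00453). Cd84, a homophilic receptor of lymphocytes, had log2 differences of -0.53 in the knockout and -0.44 with ATL1222, each against WT vehicle (limma adjusted p = 0.911 and 0.706).

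**Figure D4:**
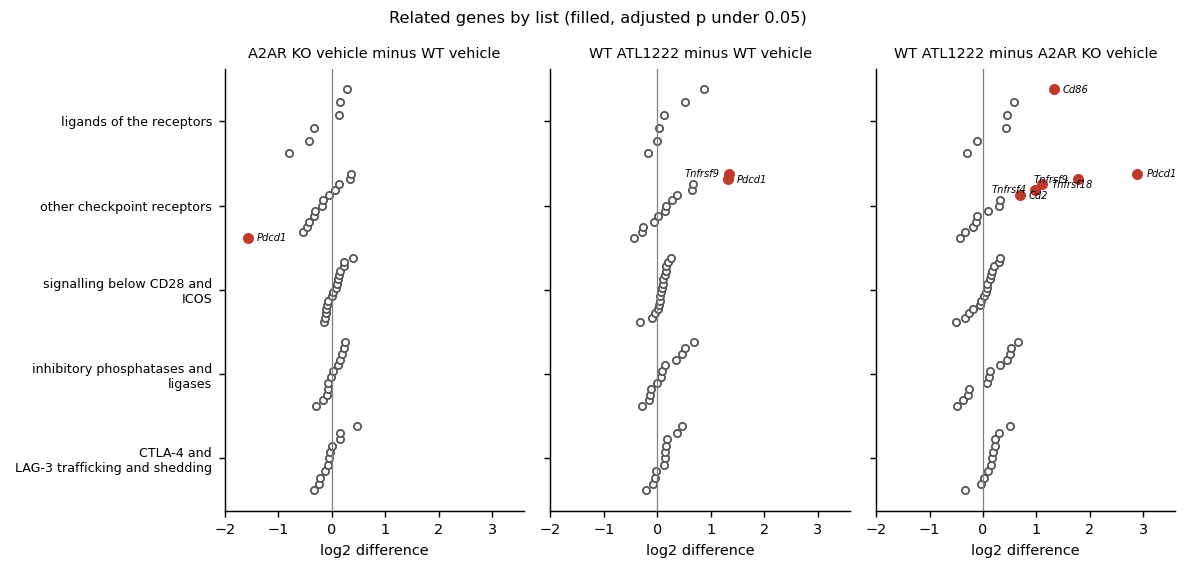
Log2 differences (x axis) of the 58 tested related genes, 1 point a gene, by list and comparison, with filled and named points where the adjusted p was under 0.05. The filled points for WT ATL1222 minus A2AR KO vehicle are 5 receptors and Cd86, all higher with ATL1222, and no gene of the 3 lower lists is filled in any panel.

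None of the signalling, phosphatase and ligase, or trafficking genes was called in the fit described above. Over all comparisons their log2 differences ran from -0.50 to 0.69. The highest was that of Inpp5d, of the phosphatase list, with ATL1222 against WT vehicle (0.69 ± 0.20, limma adjusted p = 0.385). Prkcq, the kinase PKC theta that carries the CD28 signal towards NF-kB, had 1521 and 1563 in WT ATL1222 cells, 2104 and 2276 in A2AR KO vehicle cells, and 1658 and 1664 in WT vehicle cells. The knockout arrays were the highest, by a log2 difference of 0.39 over WT vehicle, and with ATL1222 the gene lay at log2 -0.50 ± 0.14 against the knockout (limma adjusted p = 0.145, or adjusted p = 0.0221 with the replicate block). Cblb, a ubiquitin ligase that sets the need for CD28 co-stimulation, had 2426 and 2066 with ATL1222, 1646 and 1464 in the knockout and 1675 and 1576 in WT vehicle, a log2 difference of 0.52 ± 0.15 between ATL1222 and the knockout (limma adjusted p = 0.158, or adjusted p = 0.0181 with the block). Ptpn22, a phosphatase that dampens T cell receptor signals, had 0.65 ± 0.19 there (limma adjusted p = 0.169, or adjusted p = 0.0152 with the block, 1 of 4 alternatives in which it passed), and Ptpn6, the SHP-1 phosphatase gene, had -0.49 ± 0.17 (limma adjusted p = 0.331). Pdk1 had the lower value of -0.33 with ATL1222 against WT vehicle (limma adjusted p = 0.998). In the mouse that symbol is a pyruvate dehydrogenase kinase, not a part of CD28 signalling. Rab8a, a GTPase of vesicle transport listed with CTLA-4 trafficking, had 0.48 ± 0.17 in the knockout against WT vehicle (limma adjusted p = 1.00).

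**Figure D5:**
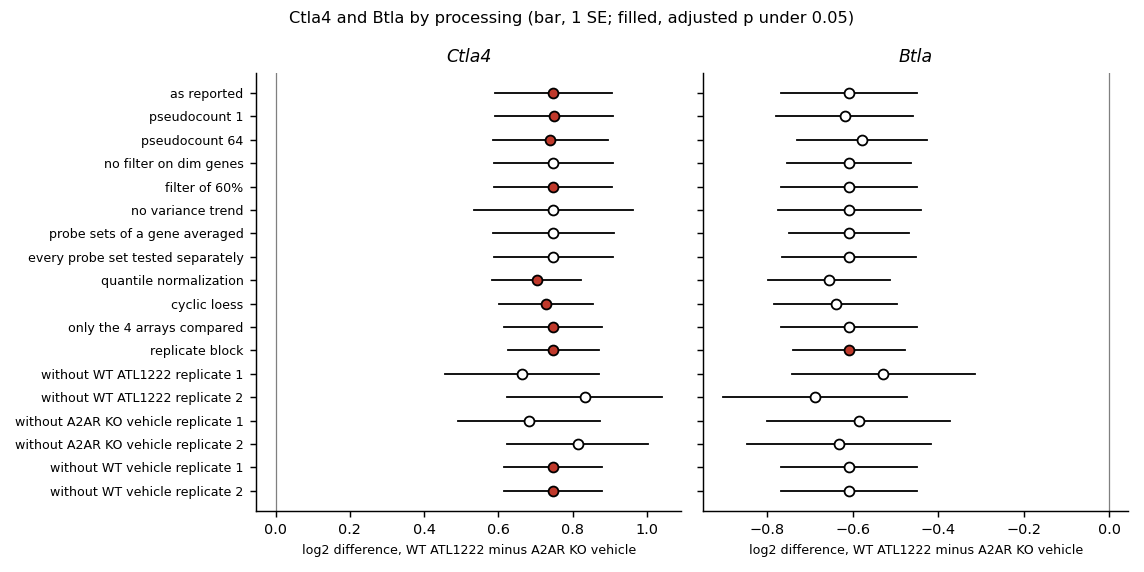
Log2 difference of Ctla4 and Btla for WT ATL1222 minus A2AR KO vehicle (x axis) as reported and under 17 other ways of processing, with bars of 1 SE and filled points where the adjusted p was under 0.05. Ctla4 stays between 0.66 and 0.83 and is filled as reported and under 9 of the 17, and Btla stays between -0.69 and -0.53 and is filled only with the replicate block.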

How the data were processed

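RNA of 6 Treg samples was labelled with biotin from 1 µg of total RNA per the labels' protocols, and the authors processed the arrays with GCOS per the submitters' processing notes, with no version or summarization method stated there. The deposited values are signal intensities on a linear scale, scaled by the authors to a common trimmed mean, and no further scaling was applied. Control probe sets (64) did not enter. Of the others 34945 had 1 gene symbol, 932 had several and 9160 none in the platform annotation. Symbols were updated through Entrez identifiers, of which 34741 matched a mouse gene table of GRCm38.p6. Ambiguous probe sets were not assigned.

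Each gene took its brightest probe set, as log2(signal + 16), which makes folds of dim genes too small. The 40% of genes with the lowest mean were dropped. All 6 arrays entered 1 fit in limma 3.58.1 (R 4.3.3) with a variance trend, tested on simulated data first. The members and lists were chosen with earlier results of these data known. Named were all members, related genes that were called, the 2 of smallest p in each direction and comparison, and the 3 genes most like Ctla4 or Btla. Cd200, Cd6, Cd80 and Inpp5d were named after their values were seen. The labels give no batch. Arrays with the same replicate number deviated together from their group means (r = 0.15, 0.23 and 0.23 for the 3 pairs of groups), and spiked-in Lys, Phe and Thr controls were brighter on replicate 1 in each group, by 1.39 to 2.21 times, and Dap by 1.00 to 1.20 times, with next to no gap in WT ATL1222, so a fit with the number as a block was made too. Pairing comes from these values, not from the design. Alternatives were another pseudocount (1 or 64), no filter or 60%, no trend, probe sets averaged or separate, quantile or cyclic loess normalization, the 4 arrays compared alone, the block, and leaving out each array.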

Additional observations from a re-analysis of the deposited data

How the results depend on the processing

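With 2 arrays a group precision is limited, with a median standard error of 0.231 (log2). Members called stayed at 0 in the knockout against WT vehicle and in ATL1222 against WT vehicle under all 17 alternatives. For ATL1222 against the knockout the 1 called member, Ctla4, became 0 with no filter on dim genes (adjusted p = 0.0920), with no variance trend (0.456), when a gene's probe sets were averaged (0.126) and with every probe set tested separately (0.112), 2 with the replicate block (Ctla4 and Btla), and 0 to 1 on leaving out an array: it was lost without WT ATL1222 replicate 1 (adjusted p = 0.391) or 2 (0.101) and without A2AR KO vehicle replicate 1 (0.170) or 2 (0.0775). Leaving out any of these arrays leaves a group of 1 array, whose spread is assumed to equal that of the other groups. Ctla4 has 1 probe set, so averaging and separate testing left its own values as they were. The fits with no filter, averaging and separate probe sets tested 18193 genes, 10916 genes and 20967 probe sets. Why the call was lost under any alternative was not tested.

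Over all genes, the 3 called in the knockout against WT vehicle became 0 without the trend, 0 with probe sets averaged, 0 with separate probe sets, 9 with the replicate block and 3 to 7 on leaving out an array (7 without WT vehicle replicate 2, 5 without A2AR KO vehicle replicate 2). The 23 called with ATL1222 against WT vehicle became 14 with no filter, 36 with a filter of 60%, 0 without the trend, 3 with averaging, 35 after cyclic loess, 44 with only the 4 arrays compared, 79 with the block and 5 to 39 on leaving out an array (5 without WT ATL1222 replicate 1 or WT vehicle replicate 2, 39 without either knockout array). The 109 called with ATL1222 against the knockout became 70, 5, 44 and 264 with no filter, no trend, averaging and the block, and 42 to 133 on leaving out an array (42 without WT ATL1222 replicate 1, 61 without A2AR KO vehicle replicate 2).

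Signs turned only for members that were not called. In the knockout against WT vehicle, Cd28 (-0.021) turned to 0.030 with averaging and 0.0021 after quantile normalization. On leaving out an array, Cd28 ran from -0.069 to 0.026 (0.026 without WT vehicle replicate 1), Icos from -0.39 to 0.014 (without A2AR KO vehicle replicate 2), Cd5 from -0.0026 to 0.18 and Cd96 from -0.094 to 0.20 (both below 0 without WT vehicle replicate 2). With ATL1222 against WT vehicle, Cd5 turned to -0.0093 after quantile normalization. On leaving out an array, Cd5 ran from -0.086 to 0.099 and Icos from -0.21 to 0.27 (both below 0 without WT ATL1222 replicate 1 or WT vehicle replicate 2), Cd160 from -0.15 to 1.00 (below 0 without WT vehicle replicate 2) and Cd96 from -0.28 to 0.0089 (above 0 without WT vehicle replicate 1). With ATL1222 against the knockout, Icos ran from -0.021 to 0.46 and Cd160 from -0.63 to 0.11 (both turned without WT ATL1222 replicate 1), and Cd5 from -0.17 to 0.0048 (without WT ATL1222 replicate 2). Of 708 single values under the alternatives, 636 kept direction and side of the threshold. With the replicate block, the calls that changed were those of Btla, Prkcq, Cblb, Ptpn22, Tnfrsf18 and Tnfrsf4 given above.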
